A study of Saccharomyces cerevisiae with 18 samples.

Results

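The members were the snoRNA genes of budding yeast, chosen from their names: every row whose identifier starts with snR, without the spliceosomal RNAs (snR6, the snR7 forms, snR14 and snR19) and without snR4 and snR45. The rule gave 74 snoRNA genes, 45 of the box C/D class and 29 of the H/ACA class. By organisation 8 lie in an intron of a protein-coding gene, 17 belong to 5 polycistronic clusters and 49 are independent genes. An antisense transcript named snR4-as also fits the letters of the rule, but it belongs to neither class and was left out. The class given here matched the R64 annotation of RefSeq for 72 genes, the other 2 being the U3 genes, whose annotation names U3 and no class. The organisation matched for all 74.

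The data are 18 RNA-seq libraries in 6 groups of 3, for which the labels describe a selection of poly(A)-tailed RNA. In the U3 experiment the U3_Mutant group carried a truncated U3 on the centromeric plasmid pRS413, and the U3_WT_Control group carried wild type snR17A on that plasmid. Both of these groups derive from BY4741, lack the SNR17B locus and had SNR17A under a PGAL promoter that is repressed in SD (glucose) medium, so the controls of this experiment are not an unmodified strain either. In the truncated U3, per the study's methods, 1 helix was replaced by the mRNA binding sequence of snR77, which is itself a member. The 3 selected clones with this plasmid grew in galactose overnight and then in glucose, in medium without histidine, to deplete the chromosomal U3. The study compared them with wild type U3 after this depletion and reported the mutant strain to be inviable in glucose. The labels give 30 °C for both U3 groups. In the snR4 experiment a BY4741 strain without SNR4 was set beside BY4741 with no further change, in 2 conditions with separate controls. By the study's methods BY4741, the parent of all strains here, is MATa and mutant in HIS3, LEU2, MET15 and URA3. Cells of the glucose groups grew at 30 °C in SD (glucose) medium, and those of the ice groups were then moved for a short time into cold PBS. For snR4 the study's text and the labels both give poly(A) selection. For U3 the labels and the methods give it too, while the results text names rRNA depletion. The labels are followed here, and which of these applies to the U3 libraries was not tested. Nothing in the labels says whether the 3 libraries of a group came from separate cultures. The study's methods name 3 transformants of the U3 mutant and of the snr4 deletion for RNA sequencing. For the BY4741 control they give no number.

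Each of the 3 deposited tables gives 1 level per gene, pooled over the 6 libraries of a comparison, mutants and controls together. These levels are described below, while mutants are not set against their controls. Levels in the ice and glucose tables are mean normalised counts. Levels in the U3 table are geometric means of estimated counts. No value per library was given, so no replicate error can be attached to an ice or glucose level, and for U3 the SD over the 6 libraries holds the difference between its groups as well. Genes are not replicates, and differences between classes of genes are therefore given as medians and ranges, with no test. A row at the median of its table had 252 estimated counts in the U3 table, 305 normalised counts on ice and 346 in glucose.

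In the nucleolus snoRNAs pair with rRNA and direct protein partners to single nucleotides. Box C/D snoRNAs guide 2′-O-methylation with the proteins Nop1, Nop56, Nop58 and Snu13, and H/ACA snoRNAs guide pseudouridylation with Cbf5, Nhp2, Nop10 and Gar1. A few members, among them U3, U14 and snR30, are needed for cleavage of the pre-rRNA. Yeast snoRNAs are made from genes with promoters of their own, from shared precursors that the endonuclease Rnt1 separates, or from the introns of protein-coding genes. Mature snoRNAs carry no poly(A) tail, while their 3′ extended precursors and decay intermediates can be polyadenylated. By the labels, the levels below are those of RNA that passed a poly(A) selection, and the share of mature snoRNA in them was not measured.

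The gene sequences of 8 members are printed because the results below turn on them: a dicistronic pair, the highest and the lowest gene of the longest cluster, a pair of intronic genes with different levels, the H/ACA gene with the highest ratio of ice to glucose, and the shortest H/ACA gene. They were read 5′ to 3′ from the R64 genome, and the capitals mark the terminal box C (ATGATGA or GTGATGA) and box D (CTGA) of the C/D genes and the last ACA of the H/ACA genes.
snR128: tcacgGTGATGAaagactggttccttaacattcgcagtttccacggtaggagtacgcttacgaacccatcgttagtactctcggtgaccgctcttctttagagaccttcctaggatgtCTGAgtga
snR190: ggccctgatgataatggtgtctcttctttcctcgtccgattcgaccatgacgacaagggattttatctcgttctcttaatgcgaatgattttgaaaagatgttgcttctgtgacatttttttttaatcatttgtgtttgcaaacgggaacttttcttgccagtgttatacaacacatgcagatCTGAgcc
snR77: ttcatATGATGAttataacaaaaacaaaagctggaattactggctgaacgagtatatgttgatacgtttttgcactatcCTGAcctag
snR73: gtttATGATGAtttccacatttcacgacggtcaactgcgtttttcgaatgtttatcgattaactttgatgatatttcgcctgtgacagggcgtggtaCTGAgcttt
snR18: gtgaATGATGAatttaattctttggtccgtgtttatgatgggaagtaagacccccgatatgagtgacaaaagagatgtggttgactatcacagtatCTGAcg
snR38: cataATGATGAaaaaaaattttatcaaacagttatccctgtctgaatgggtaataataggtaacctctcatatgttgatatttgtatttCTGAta
snR189: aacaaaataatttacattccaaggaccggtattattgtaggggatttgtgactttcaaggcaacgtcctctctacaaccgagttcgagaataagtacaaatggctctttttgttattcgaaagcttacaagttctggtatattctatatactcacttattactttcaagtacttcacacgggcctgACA
snR161: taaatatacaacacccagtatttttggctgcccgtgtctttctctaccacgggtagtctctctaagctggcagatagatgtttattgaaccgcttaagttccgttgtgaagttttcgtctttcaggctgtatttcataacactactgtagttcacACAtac
The gene of snR128, also called U14, lies on chromosome X at 139566 to 139691 and that of snR190 at 139761 to 139950, both on the minus strand. The genes of snR77 (297506 to 297593) and snR73 (298307 to 298412) lie on the plus strand of chromosome XIII. The gene of snR18 lies in an intron of EFB1 on chromosome I (142367 to 142468, plus strand), and that of snR38 in an intron of TEF4 on chromosome XI (283185 to 283279, plus strand). The gene of snR189 lies on chromosome III (178610 to 178798, minus strand) and that of snR161 on chromosome II (307185 to 307345, minus strand). In snR190 no box C of these exact letters was found near the 5′ end, so that only its box D stands in capitals.

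Over all members, an exact box C within 20 nt of the annotated 5′ end was present in 33 of 45 C/D genes (73.3%) and in 0 of 29 H/ACA genes. A box D within 20 nt of the 3′ end was present in 43 of 45 C/D genes (95.6%) and in 2 of 29 H/ACA genes (6.90%). An ACA in the last 10 nt was found in 18 of 29 H/ACA genes (62.1%) and in 7 of 45 C/D genes (15.6%). The hinge motif ANANNA is short and loose, and it occurred somewhere in 29 of 29 H/ACA genes but also in 41 of 45 C/D genes. The classes also differ in length, and this matters for the levels below. The C/D genes measured 78 to 490 nt with a median of 97 nt, and the H/ACA genes 161 to 1004 nt with a median of 204 nt. The lengths of the U3 genes snR17a (490 nt) and snR17b (462 nt) are whole gene spans. The study describes an intron in SNR17A, so the level per 100 nt of snR17a is divided by more than its spliced length.

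The first comparison asked whether the classes differ in level. The C/D genes had a lower median than the H/ACA genes in the U3 table, while in glucose the medians per length were nearly equal. Per 100 nt, the C/D genes with a level had a median of 19.6 estimated counts in the U3 table (18 genes, 2.37 to 2015) and the H/ACA genes 293 (29 genes, 29.0 to 1422), a difference of medians of -3.95 on the log2 scale. On ice the medians were 73.5 normalised counts per 100 nt for 44 C/D genes (1.69 to 726) and 94.4 for 27 H/ACA genes (12.7 to 336), a difference of -0.37. In glucose they were 63.3 for 44 C/D genes (0.3201 to 722) and 62.7 for 27 H/ACA genes (2.91 to 245), a difference of 0.01. The ranges of the classes overlapped in all 3 tables, and the C/D genes spread more widely. The interquartile range in glucose ran from 12 to 130.0 for C/D genes and from 29.6 to 85.9 for H/ACA genes. These differences are between median log2 values after 0.5 was added, here and below.

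Without division by length, C/D genes were lower in all 3 tables. Their median level was 19.1 estimated counts in the U3 table against 644 for H/ACA genes. It was 88.8 normalised counts on ice against 252, and 76.7 in glucose against 146. The step from levels to levels per 100 nt thus brought the medians together in glucose, left part of the difference on ice and left most of it in the U3 table. In glucose this holds for the medians of all genes. The difference was -0.33 as a mean of log2 levels and 0.32 with a minimum mean of 10.

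**Figure D1:**
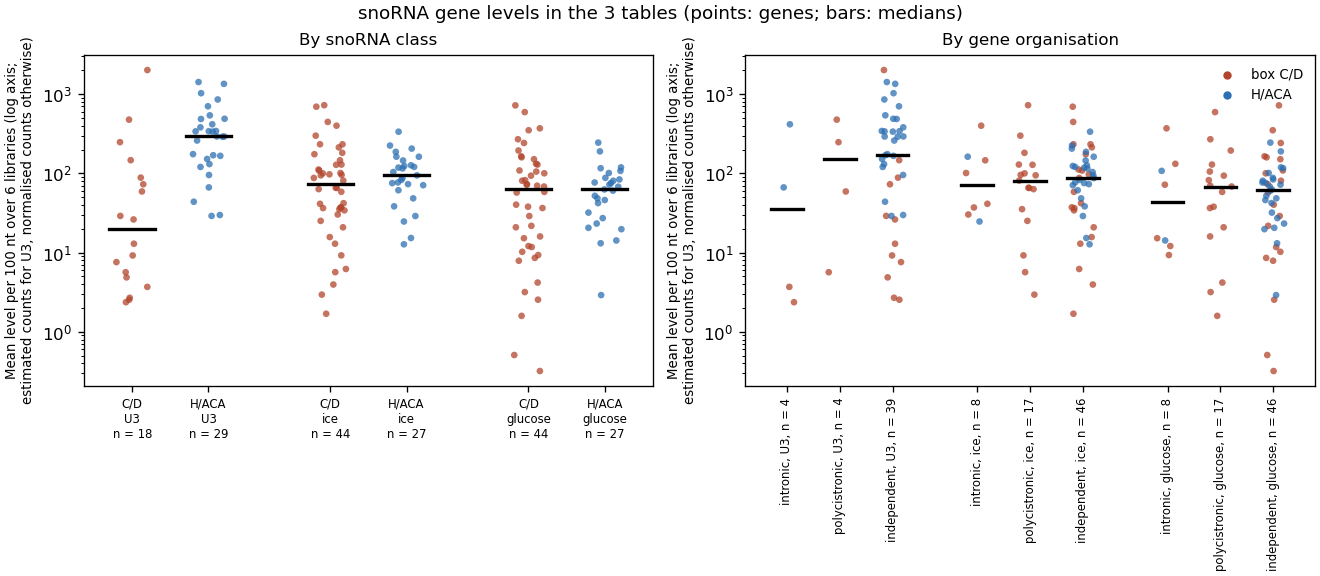
Level per 100 nt of each snoRNA gene on a log axis, by class (left) and by gene organisation (right), in the U3, ice and glucose tables. Points are genes, bars are medians and n counts the genes with a level. The C/D median lies below that of H/ACA in the U3 table (19.6 against 293) and beside it in glucose (63.3 against 62.7).

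The U3 table listed all 74 members but gave a level for only 47 of them. All 29 H/ACA genes had one, against 18 of 45 C/D genes (40%). Of all 11614 rows, 80.9% had a level. Among C/D genes the share followed the length. A level was given for 6 of 28 C/D genes of up to 100 nt and for 7 of 12 from 101 to 150 nt. All 5 C/D genes of at least 150 nt had a level: snR70, snR190, snR63 and the U3 genes snR17a and snR17b. No H/ACA gene is shorter than 161 nt, so in this table class and length cannot be told apart for the short genes.

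Other short rows of the U3 table were also often without a level. None of the 299 tRNA rows had one. Of protein-coding rows a level was given for 38.1% of 21 of up to 100 nt, 42.6% of 47 from 101 to 150 nt, 62.5% of 64 from 151 to 200 nt, 89.8% of 187 from 201 to 300 nt and 96.9% of 5689 longer ones. The study quantified the U3 libraries with kallisto and the snR4 libraries by counting STAR alignments. Library, strain, growth before harvest and counting method differ together between these experiments and cannot be told apart.

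Most of the 27 C/D genes without a U3 level had one in the other tables. Over the 26 that did, all but snR71, the medians were 35.7 normalised counts on ice and 16.5 in glucose, and the levels reached down to 3.13 on ice (snR73) and 0.530 in glucose (snR60). The 18 C/D genes with a U3 level had medians of 157 on ice and 116 in glucose. The methylation guide snR77 had the highest level among those without one, with 263 on ice and 237 in glucose. Conversely, snR18 had 3.77 estimated counts in the U3 table against 408 normalised counts on ice and 378 in glucose, and snR39B had 2.58 against 224 and 232.

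Across the 47 members with a U3 level, the Spearman coefficient between length and level was 0.74. Within the C/D class it was 0.71 (18 genes) and within the H/ACA class 0.47 (29 genes). In the other tables it was lower, 0.49 on ice and 0.39 in glucose over 71 genes, with 0.24 and 0.22 within C/D genes and 0.26 and 0.24 within H/ACA genes. These coefficients are descriptions across genes that share libraries.

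**Figure D2:**
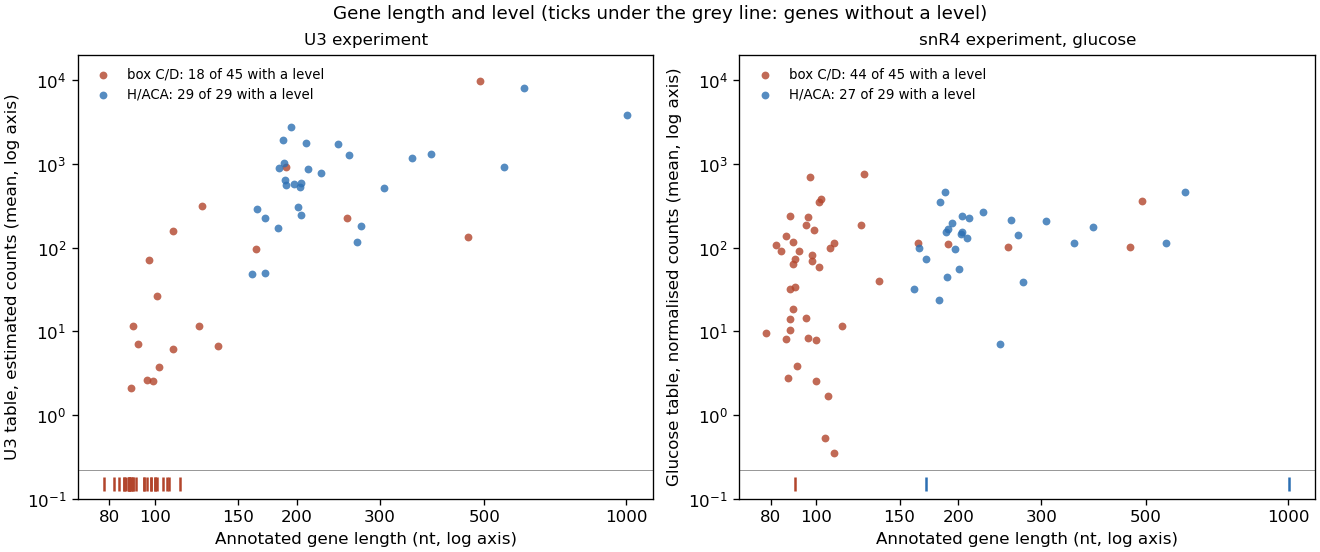
Annotated gene length against level, both on log axes, for C/D and H/ACA genes in the U3 table (left) and the glucose table (right). Ticks under the grey line are genes without a level, which in the U3 table are 27 C/D genes of 78 to 113 nt.

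Named genes of the independent organisation showed the range of levels. Among C/D genes snR17a, snR40 and snR64 ranked highest over the tables. The methylation guide snR40, 97 nt long, had 70.7 estimated counts in the U3 table, 674 normalised counts on ice and 700.1 in glucose, and snR64 had 26.5, 451 and 354. By the mean rank over the tables with a level, the lowest were snR60, with 6.46 on ice and 0.530 in glucose, and snR65, with 3.95 and 2.55. Neither had a U3 level, so their mean ranks rest on 2 tables and are not fully comparable with those of other genes. The gene snR71 had no level in any of the 3 tables and so no rank. On ice and in glucose snR87 was lower still, but its U3 level raised its mean rank. Of these low genes snR60 overlaps the annotated open reading frame YJL047C-A, and reads from overlapping genes can be lost or shared when they are counted.

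Among H/ACA genes snR30, snR86 and snR9 ranked highest. The essential snR30 had 8175 estimated counts in the U3 table, 767 normalised counts on ice and 465 in glucose, and the pseudouridylation guide snR9 had 1923, 628 and 457. The longest member, snR86, had 3829 estimated counts in the U3 table and had no row in the ice and glucose tables, so its rank rests on 1 table. The lowest were snR10, snR161 and snR36. The shortest H/ACA gene, snR161, had 48.0 estimated counts in the U3 table, 61.8 normalised counts on ice and 31.8 in glucose. The values of snR36 were 174, 27.8 and 23.9.

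Of the members known for a part in pre-rRNA cleavage, the U3 genes were the ones edited in the U3 experiment. The gene snR17a had 9874 estimated counts in the U3 table (SD of the natural log 0.81 over 6 libraries), 548 normalised counts on ice and 358 in glucose. Its paralog snR17b had 134 (SD 0.61), 172 and 101. The SNR17B locus is deleted in both U3 groups, and the paralogs share reads, so neither row of the U3 table measures 1 gene copy. In the snR4 libraries, where both genes are intact, snR17a exceeded snR17b per 100 nt with 112 against 37.3 on ice and 73.0 against 21.8 in glucose. Both lengths used are whole gene spans. The rows are again open to shared reads, and snR17a overlaps the annotated gene IRC13.

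Polycistronic genes did not differ much from independent genes in the median. Their median level was 81.1 normalised counts per 100 nt on ice against 87.4 for 46 independent genes, and 68.3 in glucose against 61.7, over 17 clustered genes in 5 clusters. The 4 clustered genes with a U3 level had a median of 153 estimated counts per 100 nt, against 170 for 39 independent genes. The other 13 clustered genes, all of the C/D class, had no U3 level. The differences of the median log2 levels were -0.48 in the U3 table, -0.11 on ice and 0.15 in glucose. With 4 genes the median of the logs lies below the log of the median, so that the U3 difference is larger than the ratio of the 2 medians. Set against independent C/D genes alone, the U3 difference changed sign to 2.68, with 4 genes against 12, and the ice difference to 0.47. Without the 7-gene cluster the U3 difference was 0.55.

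Genes of 1 cluster, which are made from 1 precursor, had very unequal levels in some clusters and similar ones in others. The longest cluster runs over 1374 nt of chromosome XIII, from 297278 to 298651, in the order snR78, snR77, snR76, snR75, snR74, snR73, snR72. Along this order the levels per 100 nt were 9.23, 299, 129, 25.1, 35.3, 2.95 and 65.8 on ice. In glucose they were 3.18, 270, 105, 20.9, 16, 1.59 and 82.2. The second gene, snR77, was the highest and the sixth, snR73, the lowest in both tables, 101-fold apart on ice and 169-fold apart in glucose. Before division by length snR73 had means of only 3.13 on ice and 1.69 in glucose, so these folds rest on few reads. The order of levels therefore did not run evenly from the first gene to the last. Only snR76 had a level in the U3 table here, 6.16 estimated counts.

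The dicistron of snR190 and snR128 lies within 385 nt. Its second gene, snR128 or U14, which acts in pre-rRNA cleavage and as a methylation guide, had 726 normalised counts per 100 nt on ice and 594 in glucose. That was 11.1-fold the level of the first gene on ice and 10.2-fold in glucose. The first gene, snR190, had 65.5 on ice and 58.3 in glucose. In the U3 table the order was the opposite, with 248 estimated counts per 100 nt for snR128 (126 nt long) and 477 for snR190 (190 nt long). The level of snR190 before division by length was 906 estimated counts there (SD of the natural log 0.59), and that of snR128 was 312 (SD 0.65).

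The other dicistron, on chromosome V from 61352 to 61789, was uneven in the other direction, by 22.6-fold on ice and 30.9-fold in glucose. Its first gene, snR67, had 128 normalised counts per 100 nt on ice and 129 in glucose, and its second gene, snR53, had 5.67 and 4.19. Before division by length snR53 had means of 5.16 and 3.81, so these folds also rest on few reads. In the tricistron on chromosome XVI (718700 to 719242) the 3 genes were closer. The levels of snR41, snR70 and snR51 were 182, 81.1 and 100.1 on ice and 194, 68.3 and 93.6 in glucose. In the tricistron on chromosome XII (794486 to 795024), snR57, snR55 and snR61 had 94.5, 95.7 and 63.3 on ice and 36.5, 69.96 and 38.0 in glucose. Its levels were within 1.51-fold of each other on ice and 1.92-fold in glucose.

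**Figure D3:**
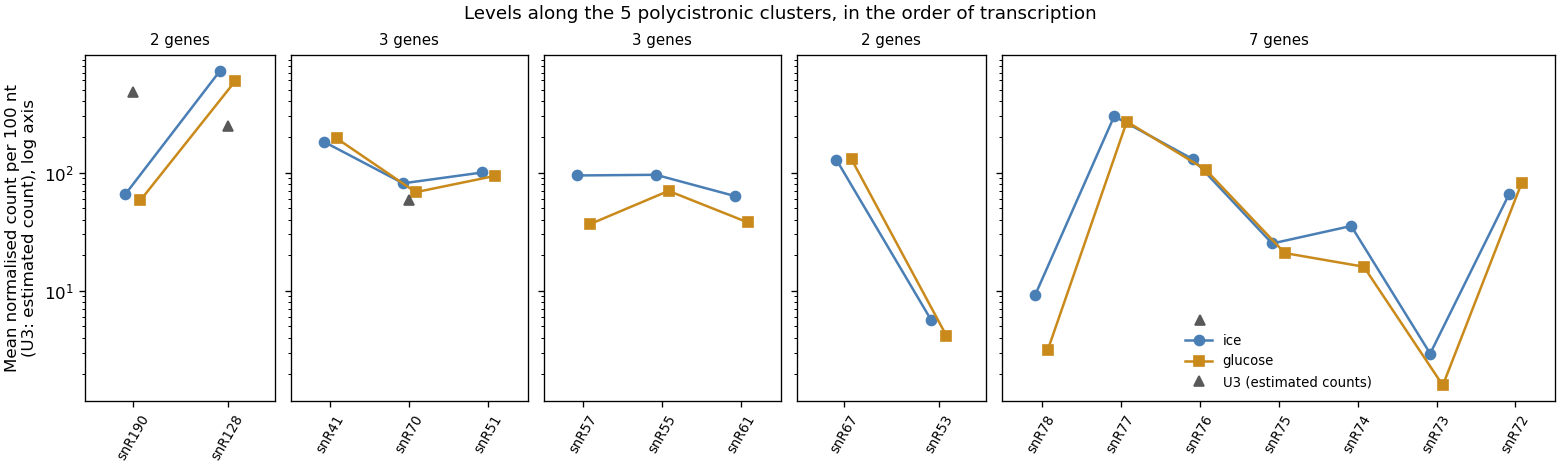
Level per 100 nt of each gene of the 5 polycistronic clusters, in the order of transcription from left to right, on a log axis. Circles are ice, squares glucose and triangles the U3 table, where most of these genes have no level. In the 7-gene cluster snR77 stands 101-fold above snR73 on ice and 169-fold in glucose, where the means of snR73 lie under 10 in both tables.

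Intronic genes had the lowest medians of the 3 organisations, with few genes behind them. The 8 intronic genes had a median of 71.2 normalised counts per 100 nt on ice (24.7 to 399.9) against 87.4 for 46 independent genes (1.69 to 694). In glucose it was 43.6 (9.32 to 370.5) against 61.7 (0.3201 to 722). The differences of the median log2 levels were -0.43 and -0.88. Only 4 intronic genes had a U3 level, with a median of 35.1 estimated counts per 100 nt against 170 for 39 independent genes, and a difference of median log2 levels of -3.34. The ranges overlapped throughout. The ice difference turned to 0.14 among C/D genes alone and to 0.13 as a difference of mean log2 levels over all genes. Among C/D genes the difference in glucose was -0.78. In glucose the direction turned to 0.28 when genes with a mean under 10 were left out, which removed snR54 and snR59 and 6 independent genes.

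The highest intronic genes were snR18 of the C/D class and snR44 of the H/ACA class. The level of snR18, hosted by the elongation factor gene EFB1, was 408 normalised counts on ice and 378 in glucose. That of snR44, hosted by the ribosomal protein gene RPS22B, was 343 and 227. The next were snR24 with 130.2 and 118, hosted by ASC1, which encodes a ribosome-associated protein, and snR39 with 89.996 and 64.1, hosted by the ribosomal protein gene RPL7A. The H/ACA gene snR191 in NOG2, which encodes a GTPase of large subunit assembly, had 67.7 and 39.0. The lowest were snR38 in the elongation factor gene TEF4 with 39.3 and 14.4, snR59 in RPL7B with 29.0 and 9.44, and snR54 in IMD4, an IMP dehydrogenase gene, with 26.0 and 8.01. In the U3 table snR44 had 879 estimated counts, snR191 had 182, and snR18 and snR24 had 3.77 and 2.11.

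Every intronic gene stood far below the host mRNA. Per 100 nt, with the coding length for the host, the host exceeded its member by 7.15-fold (snR59) to 39.5-fold (snR38) on ice and by 8.69-fold (snR18) to 107-fold (snR38) in glucose. Between members and hosts the Spearman coefficient per 100 nt was 0.76 on ice and 0.79 in glucose over 8 pairs, but without division by length it was 0.40 and 0.36. Over the 4 pairs of the U3 table it was negative, with -0.60 per 100 nt and -0.80 without division. Member and host share libraries, and reads of unspliced host RNA cover the member as well. For U3 the ratio of host to member was 5.86 for snR44 and 6.15 for snR191 but 844 for snR18 and 1086 for snR24, so the H/ACA and C/D pairs stood apart there. RPL7A and RPL7B are near-identical paralogs whose reads can be split between them.

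**Figure D4:**
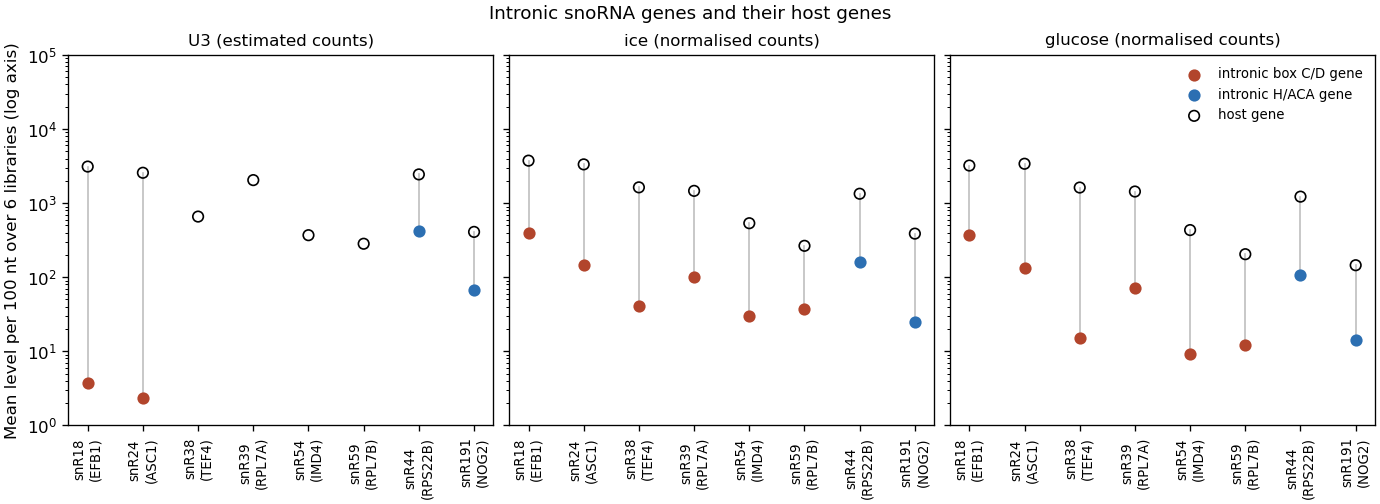
Level per 100 nt of the 8 intronic snoRNA genes (filled) and their host genes (open), joined by a line, in the U3, ice and glucose tables on a log axis. Each host lies above its member, by 7.15-fold to 39.5-fold on ice, and snR38, snR39, snR54 and snR59 have no U3 level.

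The order of members was nearly the same on ice and in glucose and different in the U3 table. The Spearman coefficient of the levels was 0.96 between ice and glucose over 71 members. It was 0.36 between U3 and ice and 0.23 between U3 and glucose, over 45 members. Over all rows that the tables share, the coefficients were 0.98, 0.85 and 0.81. Within the H/ACA class they were 0.90, 0.53 and 0.50, and within the C/D class 0.98, 0.09 and -0.03. After division by length the coefficient between U3 and ice was -0.01 and that between U3 and glucose -0.09.

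Between the U3 and glucose tables, the members furthest apart were snR87 and snR10 at one end and snR18 and snR39B at the other. Between U3 and ice snR47 stood beyond snR39B, with 2.52 estimated counts in the U3 table against 230.4 normalised counts on ice. The 109-nt C/D gene snR87 had 160.0 estimated counts in the U3 table (SD of the natural log 0.53 over 6 libraries) against 1.84 normalised counts on ice and 0.349 in glucose. The H/ACA gene snR10, which acts in pre-rRNA cleavage as well as pseudouridylation, had 1723 (SD 0.72) against 31.2 on ice and 7.13 in glucose. The gene of snR10 overlaps the open reading frame YGL088W in the annotation, while that of snR87 overlaps no other annotated gene of R64. The authors' tables also hold non-coding transcripts whose positions were not used here. Of the remaining members, snR80 had 224 estimated counts in the U3 table and, like snR86 and snR71, no row in the ice and glucose tables. The part of the annotation in these values was not tested.

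The transfer to ice-cold buffer was compared with growth in glucose through the ratio of the pooled levels. The tables were normalised separately and share no library, so each ratio was divided by the median ratio of all 6799 genes with a mean of at least 10 in both tables, which was 0.947. On this scale 57 of 60 members (95%) lay above the median gene, with a median of 0.53 on the log2 scale or 1.45-fold. By construction 50.0% of all genes lay above it. Among members, 0 of 60 were more than 2-fold below the median gene, against 361 of all genes (5.31%), and 12 of 60 (20%) were more than 2-fold above it, against 161 of all genes (2.37%). A similar share was seen among cryptic unstable transcripts (CUTs), so it is not particular to the members. Of 204 CUTs 147 (72.1%) lay above the median gene. More than 2-fold above it were 38 (18.6%), and 7 (3.43%) were more than 2-fold below. Of 497 transcripts sensitive to Xrn1 (XUTs) 4 (0.805%) were more than 2-fold above. There is no replicate error for these ratios, and condition, library batch and normalisation cannot be told apart.

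The H/ACA genes lay higher on this scale than the C/D genes. The median was 0.34 for 34 C/D genes (-0.24 to 1.71) and 0.67 for 26 H/ACA genes (0.03 to 1.98), and all 26 H/ACA genes lay above the median gene, against 31 of 34 C/D genes. The 5 C/D genes of at least 150 nt had a median of 0.33 and the 29 shorter ones 0.35. The Spearman coefficient between length and this ratio was 0.33 over all 60 members. It was 0.07 within C/D genes and 0.20 within H/ACA genes. With so few long C/D genes, class and length cannot be told apart here. By organisation the medians were 0.62 for 6 intronic, 0.34 for 14 polycistronic and 0.57 for 40 independent genes. The 14 polycistronic genes are all of the C/D class, whose 16 independent genes had a median of 0.33.

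The highest ratios were those of snR189, snR56 and snR38. The pseudouridylation guide snR189 had 165 normalised counts on ice and 44.0 in glucose, 1.98 on the centred log2 scale. The C/D gene snR56 had 32.1 and 10.3 (1.71) and the intronic snR38 had 39.3 and 14.4 (1.52). The glucose means of snR56 and snR38 lie close to the minimum of 10, so that these ratios also rest on few reads. The host of snR38, TEF4, stood at 0.09 on the same scale, with 20236 on ice and 20121 in glucose. For snR191 the member stood at 0.87 and its host NOG2 at 1.496. The lowest ratios were those of snR72 (64.5 on ice and 80.6 in glucose, -0.24), of snR52 (80.6 and 92.2, -0.12), which is transcribed by RNA polymerase III, and of snR41 (173 and 185, -0.02). Among the genes of the 7-gene cluster that met the minimum of 10, snR72 and snR74 (31.1 and 14.1, 1.22) therefore stood at opposite ends. The cluster genes snR78 (8.03 and 2.76) and snR73 did not meet it.

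The 11 members under a mean of 10 in either table were left out of these counts. Each had a higher mean on ice, by 1.35-fold (snR53) to 12.2-fold (snR60) before centring, and at such levels a ratio rests on few reads. Over the 60 members kept, the Spearman coefficient between glucose level and centred ratio was -0.25. It was -0.40 within C/D genes and -0.24 within H/ACA genes. With a minimum mean of 50 the median ratio was 0.40 over 48 members. Among other transcripts, 5669 mRNAs had a median of 0.00 on the centred scale, 204 CUTs, which are cryptic unstable transcripts, 0.30, 497 XUTs, which are transcripts sensitive to Xrn1, -0.12, and 4 spliceosomal RNAs 0.51. Genes with means from 10 to 1000 in both tables, the range of all 60 members, had a median of -0.02 (3731 genes).

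**Figure D5:**
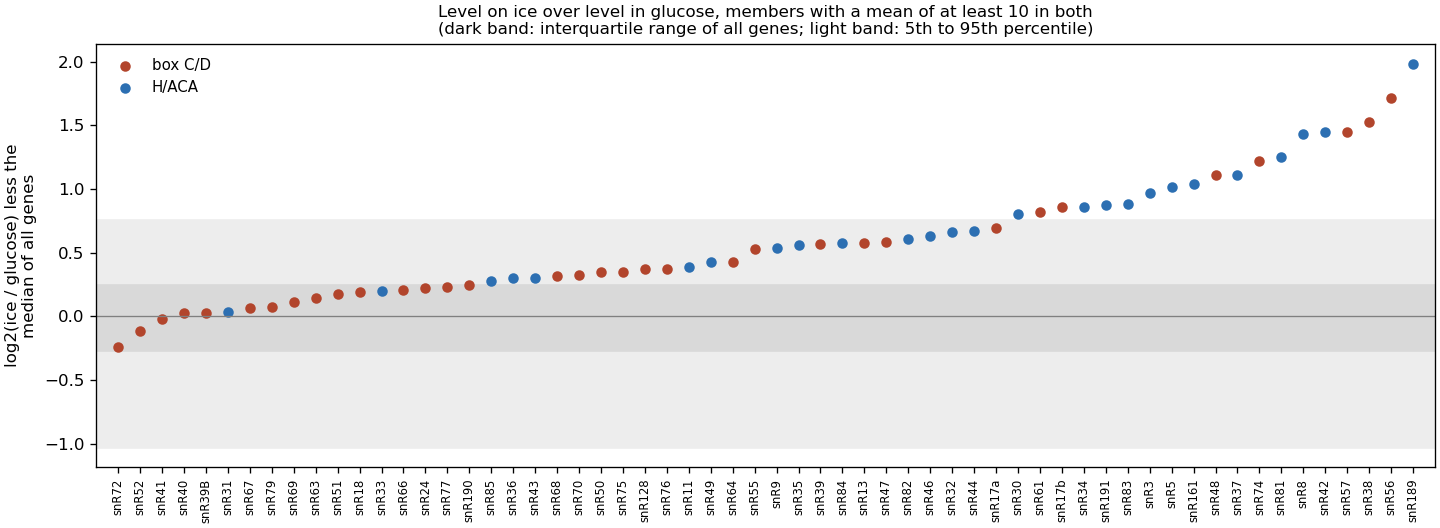
Level on ice over level in glucose for the 60 members with a mean of at least 10 in both tables, on the log2 scale less the median of all 6799 genes, ordered from low to high. The dark band spans the interquartile range of all genes and the light band the 5th to 95th (-1.03 to 0.76). The C/D gene snR72 is lowest (-0.24) and the H/ACA gene snR189 highest (1.98).

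Levels in the U3 experiment varied more over its 6 libraries for the members than for most transcripts. The SD of the natural log was 0.62 at the median of 47 members, about 1.85-fold, against 0.39 or 1.47-fold at the median of 9393 transcripts. Of the members 37 (78.7%) lay above the median transcript. The median was 0.68 for 18 C/D genes and 0.60 for 29 H/ACA genes. Within the C/D class it was 0.85 for 13 genes under 150 nt and 0.61 for 5 longer ones. The 13 are those of 40 short C/D genes that had a U3 level, at a median of only 6.98 estimated counts. The SDs of the short genes without a level are unknown. These medians therefore cannot be read as a difference between C/D and H/ACA genes or between short and long C/D genes. The technical part of the variance that the authors' software estimated was 10.5% of the variance at the median of the C/D genes and 0.813% at that of the H/ACA genes. The variance covers mutants and controls together, and how much of it lies between those groups was not tested.

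The largest SDs were those of snR47 (1.63, at a level of 2.52 estimated counts), snR30 (1.36, at 8175) and snR18 (1.34, at 3.77). A low level thus accompanied the large SD of snR47 and snR18, while snR30 was among the highest of all members. At such low levels an SD rests on few reads. How the rule that left rows without a level shaped these SDs was not tested. The H/ACA genes snR86 (1.26, at 3829) and snR11 (1.24, at 1261) followed. The smallest SDs were those of snR70 (0.24), snR31 (0.25) and snR9 (0.26).

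Many yeast snoRNA genes have been described as targets of the transcription factor Tbf1. Its motif, AACCCTAA or AGCCCTAA on either strand, was looked for from 250 nt before to 50 nt after the annotated start of each gene. Members with a promoter of their own are the independent genes and the first gene of each cluster. The motif occurred in 8 of 54 of these (14.8%) and in 81 of 6477 annotated genes (1.25%). These 6477 include the members. For protein-coding genes the annotated start is that of the coding sequence, so the 2 shares come from differently placed windows and are not fully comparable. The 8 genes were the C/D genes snR13, snR17b and snR65 and the H/ACA genes snR5, snR30, snR31, snR46 and snR49. It was found in none of the 5 first genes of a cluster, and in 1 of the 8 host genes. Per 100 nt, the members with the motif had a median of 96.2 normalised counts on ice (3.95 to 213) and those without it 87.6 (1.69 to 694), and in glucose 68.2 (2.55 to 151) and 58.3 (0.3201 to 722). Within the C/D class the order was the opposite, with 37.3 for 3 genes with the motif and 87.6 for 23 without it on ice, and 21.8 and 58.3 in glucose. Within the H/ACA class the medians were 116 for 5 genes with it and 90.8 for 20 without it on ice, and 75.8 and 57.5 in glucose. The ranges overlapped, and a match of these letters is no measured binding site.

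Among the proteins of snoRNA biology, a list of 28 genes was read for levels alone. The core proteins of both classes had the highest medians of the groups. Per 100 nt Nop1 had 1494 normalised counts on ice and 1239 in glucose, Nop56 932 and 732, Cbf5 921 and 733 and Gar1 1197 and 1048. Before division by length, the 5 assembly factors ranged from 277 to 1594 on ice and from 163 to 1033 in glucose. The endonuclease gene RNT1 had 1148 on ice and 681 in glucose, and the exosome cofactor gene MTR4 6223 and 4018. On the centred log2 scale of ice over glucose the list had a median of 0.37, with a range of -0.53 (NRD1, a factor of transcription termination) to 1.44 (AIR1, a subunit of the TRAMP complex). The cap methyltransferase gene TGS1 had a level in the U3 table alone, 134 estimated counts.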

How the data were processed

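RNA-seq libraries were grouped from the sample titles. The authors quantified the U3 libraries with kallisto and sleuth, and for snR4 they counted STAR alignments per gene with HTSeq and normalised the counts with DESeq2, per the study's methods and the submitters' processing notes, which also name the build R64. The columns used are the authors' means. For U3 the deposited mean is that of the natural log of (estimated count + 0.5), and it was turned back into a count. The variance over libraries and the technical variance are deposited score values. For ice and glucose the deposited signal is the mean normalised count over 6 libraries. The tables also hold the authors' fold changes, their errors, test statistics, p-values, adjusted p-values and further variance components, which compare mutants with controls and were not used. Depth per library is unknown. The tables hold 0 other columns per sample.

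Levels were divided by annotated gene length, and classes were compared as differences of median log2(level per 100 nt + 0.5). Genes named in the text were all intronic and clustered members, U3, snR128, snR30, snR10, snR52, the 3 highest and 3 lowest independent genes of each class by mean rank, the 3 extremes of the ratio of ice to glucose, the 3 largest SDs and the hosts. The gene snR71 was placed among the lowest although it had no level and no rank. snR5, snR11, snR13, snR31, snR39B, snR46, snR49, snR63, snR80 and snR87, the proteins outside the core and TGS1 were named after their values were seen. The members and lists were chosen with earlier results of these data known. Nearness within 500 nt on 1 strand defined clusters in the annotation. The class difference (without the added 0.5) and the rank coefficient were run on values whose outcome was fixed by construction. These runs check only that the code returns the set value. The centred ratio was checked on the glucose levels with noise and known shifts added. The other calculations were not checked in this way. Python 3.11.15, numpy 2.4.6, pandas 2.3.3 and matplotlib 3.10.9 were used. Alternatives were the length scaling, pseudocount, filters, subsets and summaries, as given in the closing section.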

Additional observations from a re-analysis of the deposited data

How the results depend on the processing

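The class and organisation differences in the U3 table depended on the processing. The C/D minus H/ACA difference of -3.95 there was -5.15 without division by length, -1.998 with a minimum mean of 10, -3.27 as a mean of log2 levels, -1.72 with C/D genes of at least 150 nt, -5.18 with shorter ones and -9.20 with missing levels set to 0. Without division by length it was -1.50 on ice (-0.37) and -0.93 in glucose (0.01). The intronic minus independent difference in the U3 table (-3.34) was -4.22 without division by length, -0.64 with the minimum, -2.42 as a mean, -2.45 among C/D genes and -6.66 with missing levels at 0. It was -1.05 on ice without division by length (-0.43), and in glucose (-0.88) 0.28 with the minimum and -0.058 as a mean. The polycistronic minus independent difference in the U3 table (-0.48) was -1.57 without division by length, 2.68 among C/D genes, -1.51 with 1 value per cluster, 0.55 without the 7-gene cluster and -7.92 with missing levels at 0. Without division by length it was -0.78 on ice (-0.11) and -0.48 in glucose (0.15). The rank agreement of the U3 table was -0.013 with ice (0.36) and -0.091 with glucose (0.23) after division by length. The cause of these shifts was not tested. The other 76 of 101 alternatives moved a value by less than 1.5-fold, or a coefficient by less than 0.2, although 19 of all alternatives changed a sign. On ice these were the C/D minus H/ACA difference with the minimum (0.01), the intronic one as a mean (0.13) and among C/D genes (0.14), and the polycistronic one with the minimum (0.01), among C/D genes (0.47), with 1 value per cluster (0.11) and without the 7-gene cluster (0.12). In glucose the C/D minus H/ACA difference (0.01) also turned negative as a mean (-0.33), among independent genes (-0.13) and without snR17a, snR17b and snR52 (-0.10). It did so too with C/D genes of at least 150 nt (-0.10) and without overlapping genes (-0.05). The excess on ice stayed between 0.34 and 0.67 under all alternatives run for it. The splits at 150 nt, the missing levels at 0, the removal of overlapping genes and snR10 with snR87, and for the ice excess the single classes and the narrower centring, were chosen after seeing the data. No paired analysis was possible because the columns used are pooled over libraries and carry no replicate numbers, and for the same reason no library could be left out. Depth limits the 11 members with a mean under 10 on ice or in glucose.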

Other observations

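Of the snR rows that the rule left out, the spliceosomal snR7-L showed a gap between the tables like that of snR87 and snR10, with 3217 estimated counts in the U3 table against 1.88 normalised counts on ice and 0.319 in glucose. Its shorter form, snR7-S, had no level in any table. The spliceosomal snR19 had 2072 estimated counts in the U3 table, 717 normalised counts on ice and 337 in glucose, and snR6 had 1143, 343 and 371. The antisense transcript snR4-as had 0.594 on ice and 0.942 in glucose, and no level in the U3 table.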
